A study of Mus musculus with 4 samples.

Results

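The 10 genes described here encode the transcription factors and cofactors that build red blood cells and switch their globin genes. They are Gata1, Tal1, Klf1, Gfi1b, Nfe2, Zfpm1, Ldb1, Bcl11a, Sox6 and Zbtb7a, chosen by name for their role, with earlier results of these data known, and all 10 were found among 22011 genes. Their transcripts were sequenced from cells of the fetal liver, where most blood forms before birth, of mice labelled hnRNP L -/- (KO, n = 2) and of mice labelled wild type (WT, n = 2). hnRNP L is a nuclear RNA-binding protein that acts in splicing, so levels of each gene and its splice junctions were both compared between the genotypes. The labels' protocols name C57BL/6 mice, an LckCre transgene (its promoter is active in T cells), the reporter Gt(ROSA)26Sortm4(ACTB-tdTomato,-EGFP)Luo as well as CD45.1 animals, without saying which alleles the sampled fetuses carried. The sources used here give neither the kind of deletion nor the embryonic day, the litters or the genome build. Nothing says which libraries shared a slide, so it is not known whether slide differed with genotype.

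The libraries held 97490949 and 96260423 mapped reads in KO and 70020061 and 111324295 in WT. Hnrnpl itself was at 280 and 269 CPM in KO, against 460 and 603 CPM in WT (log2 fold change -0.95, SE 0.16, edgeR adjusted p = 0.0114), so its transcript was lower in KO and still present. CPM are counts per 1000000 reads after TMM scaling of the libraries. KO replicate 2 carried Y-linked Ddx3y at 55.4 CPM and Xist at 6.55 CPM, whereas the other 3 libraries had Xist at 929 to 975 CPM and Ddx3y below 1 CPM. Erythroid markers, the defining genes of red cell precursors, were abundant in all 4 libraries, at a summed 17067 and 13206 CPM in KO and 25037 and 25168 CPM in WT. Markers of heart muscle, which the tissue label does not cover, summed to 8.71 and 10.7 CPM in KO and to 67.7 and 346 CPM in WT. They were highest in WT replicate 2, and results with each single library left out are given below.

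In erythroid precursors GATA1 binds DNA together with TAL1, and LDB1 joins such sites into loops that bring the distal globin enhancers to the globin promoters. KLF1 is required for the adult beta globin gene, while BCL11A, SOX6 and ZBTB7A silence embryonic and fetal globin genes. ZFPM1 (FOG1) is the cofactor that GATA1 needs for many of its targets, GFI1B is a repressor whose gene GATA1 and GFI1B themselves control, and NFE2 binds the globin enhancers with small MAF proteins.

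Because these factors bind each other's genes, 3 promoters are shown, those of Klf1 and Zbtb7a, whose levels fell in KO, and that of Gfi1b, whose level did not. Each is the stretch of 250 bases before the transcription start, 5′ to 3′ on the gene's strand, from RefSeq on GRCm38.p6, at chr8:84901732-84901981 (plus strand), chr10:81136021-81136270 (plus strand) and chr2:28621983-28622232 (minus strand). Capitals mark GATAA, the core that GATA factors bind, and CCNCNCCC, the box that KLF1 binds, on either strand, where N is any base.
Klf1: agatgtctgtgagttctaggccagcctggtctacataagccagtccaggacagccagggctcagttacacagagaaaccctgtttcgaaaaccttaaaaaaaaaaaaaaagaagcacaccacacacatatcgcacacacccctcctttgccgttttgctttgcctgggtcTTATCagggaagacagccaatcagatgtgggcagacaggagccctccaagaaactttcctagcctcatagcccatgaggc
Zbtb7a: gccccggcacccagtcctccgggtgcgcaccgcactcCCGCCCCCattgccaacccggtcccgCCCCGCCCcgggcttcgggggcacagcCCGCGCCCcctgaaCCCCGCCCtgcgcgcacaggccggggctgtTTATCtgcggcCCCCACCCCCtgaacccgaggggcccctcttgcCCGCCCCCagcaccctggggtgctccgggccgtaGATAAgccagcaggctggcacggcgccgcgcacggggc
Gfi1b: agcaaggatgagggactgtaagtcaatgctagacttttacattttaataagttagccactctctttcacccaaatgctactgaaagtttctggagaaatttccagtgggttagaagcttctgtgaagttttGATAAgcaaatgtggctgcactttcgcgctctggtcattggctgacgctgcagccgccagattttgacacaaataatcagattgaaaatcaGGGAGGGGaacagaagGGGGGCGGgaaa
The printed Klf1 stretch held 1 match to GATAA and 0 to CCNCNCCC, that of Zbtb7a 2 and 7, and that of Gfi1b 1 and 2. RefSeq windows of 300 bases, which add the first bases after the start, were at hand for 9 of the 10 members and numbered 17. GATAA was found in at least 1 window of 6 of these members and in 8 of the 17 windows, against 25.4% of all 32851 windows. CCNCNCCC was found in 8 members and 11 windows, against 49.5% of all windows. The E-box CANNTG, which TAL1 binds with its partners and which reads the same on both strands, was found in 7 members and 12 windows, against 72.3% of all windows. The shares of all windows stand beside the window counts only, since no share per gene was computed. Sox6 alone held 6 of the 17 windows. Matches that overlap each other were each counted. A match describes the letters of these windows and is not a bound site.

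Per kilobase of transcript and 1000000 mapped reads (the authors' RPKM), the regulators covered a wide range and kept nearly the same order in both genotypes. Klf1 was the highest in both, at 148 ± 29.6 RPKM in KO and 236 ± 9.57 RPKM in WT (SD, n = 2 each). Bcl11a was the lowest, at 5.19 ± 0.26 RPKM in KO and 6.44 ± 0.37 RPKM in WT. In KO the order from high to low was Klf1, Nfe2, Gata1, Tal1, Ldb1, Zfpm1, Gfi1b, Sox6, Zbtb7a and Bcl11a, and no neighbours in it overlapped. WT gave the same order except that Zfpm1 (45.4 RPKM) stood before Ldb1 (44.3 RPKM), and the libraries of that pair, of Nfe2 with Gata1 and of Gata1 with Tal1 overlapped. In KO the levels of Gata1 and Tal1 were 85.5 and 67.3 RPKM, and in WT they were 108 and 102 RPKM.

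**Figure D1:**
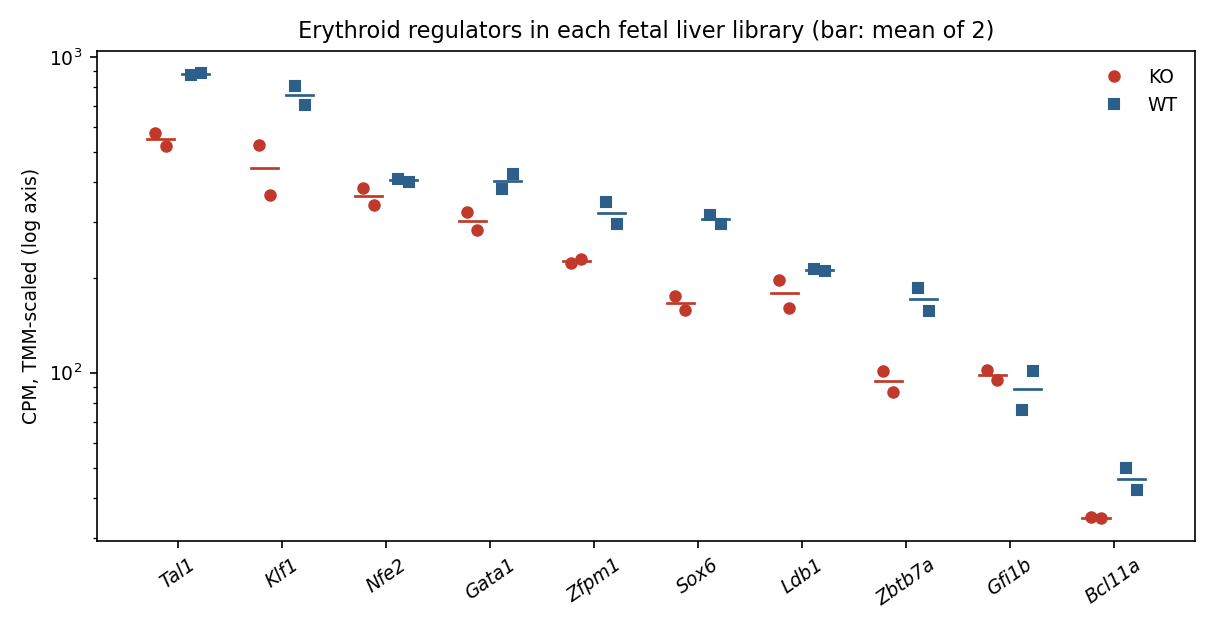
CPM (log axis) of the 10 regulators in each library, KO (red circles) left of WT (blue squares), with a bar at the mean of the 2 libraries. Both KO libraries lie below both WT libraries for every gene except Gfi1b, with the widest gaps for Sox6, Zbtb7a, Klf1 and Tal1.

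Of the 10 regulators, 5 were lower in KO past an edgeR adjusted p of 0.05 and 0 were higher, against 9.44% of 15028 tested genes lower, 11.4% higher and 20.8% in either direction. Gfi1b, the only member with a positive value, had an unadjusted p of 0.368, and DESeq2 and limma voom called 0 members higher as well. The count of lower members was 5 with limma voom, 7 with DESeq2, 4 without KO replicate 1 and 2 without any other single library. All 10 passed the filter on low counts, and their median log2 fold change was -0.47, against 0.02 over all tested genes. Both KO libraries lay below both WT libraries for 9 of the 10, an arrangement found in 31.7% of all tested genes. In these bulk samples, fewer red cell precursors and less of a transcript per precursor cannot be told apart.

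Among the activators that bind DNA, Klf1 and Tal1 fell. Klf1, the globin and membrane gene activator, was at 526 and 365 CPM in KO, against 808 and 705 CPM in WT. The KO libraries were both lower, differed from each other more than the WT libraries did, and did not overlap them. Its log2 fold change was -0.76 (SE 0.20, edgeR adjusted p = 0.0346). Tal1, a basic helix-loop-helix factor, was at 572 and 524 CPM in KO and at 876 and 889 CPM in WT. Here both genotypes were tight and well apart, with a log2 fold change of -0.69 (SE 0.14, edgeR adjusted p = 0.0183). Both calls were lost when KO replicate 2, WT replicate 1 or WT replicate 2 was left out. Over the 4 omissions the log2 fold change of Klf1 lay between -1.06 and -0.52 (edgeR adjusted p of 0.0126 to 0.113) and that of Tal1 between -0.76 and -0.63 (0.0233 to 0.0756).

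Gata1, the X-linked zinc finger factor at the centre of the circuit, was at 321 and 284 CPM in KO, against 383 and 426 CPM in WT. Both KO libraries were lower without overlap, yet the difference missed the threshold (log2 fold change -0.42, SE 0.14, edgeR adjusted p = 0.0653). Since KO replicate 2 alone had the Y-linked reads of a male, the value without it is given too: -0.33 (edgeR adjusted p = 0.217). Gata1 was called lower with DESeq2, with no filter on low counts and with a replicate block (the number that library files share across genotypes). Nfe2, the partner of the small MAF proteins, was at 384 and 339 CPM in KO and 412 and 401 CPM in WT. The gap between the genotypes was narrow, and its log2 fold change of -0.17 (SE 0.13) had an edgeR adjusted p of 0.39. Gfi1b, the repressor of the set, was the exception in direction, at 102 and 94.7 CPM in KO and 76.4 and 102 CPM in WT. The genotypes overlapped, the log2 fold change was 0.14 (SE 0.15, edgeR adjusted p = 0.524), and without WT replicate 1 it was -0.05. For Nfe2 and Gfi1b 2 standard errors either side reached from -0.43 to 0.09 and from -0.15 to 0.44, so that small changes either way remain possible.

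Of the cofactors that act through other DNA-binding proteins, Zfpm1 fell and Ldb1 did not pass. Zfpm1 was at 222 and 228 CPM in KO, against 346 and 296 CPM in WT. Both KO values were nearly equal and below both WT values, with a log2 fold change of -0.51 (SE 0.13, edgeR adjusted p = 0.0326). This call was lost when any library was left out (log2 fold change -0.62 to -0.40, edgeR adjusted p of 0.0619 to 0.158) and with no TMM scaling. Ldb1 was at 197 and 160 CPM in KO and 213 and 209 CPM in WT. The KO libraries spanned a wider range just under the WT pair, and the log2 fold change of -0.24 (SE 0.13) had an edgeR adjusted p of 0.229.

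By transcript reads, the largest falls were those of Sox6 and Zbtb7a, genes of globin-switching repressors. Sox6, an HMG-box factor that represses the embryonic beta globin gene Hbb-y, was at 175 and 158 CPM in KO, against 315 and 296 CPM in WT. The genotypes were well apart and tight, with a log2 fold change of -0.88 (SE 0.12, edgeR adjusted p = 0.0080), or 0.545 of the WT level. Zbtb7a (LRF), a BTB zinc finger repressor of fetal globin in human cells, was at 101 and 86.9 CPM in KO and 185 and 157 CPM in WT. Again neither KO library reached the WT range, and the log2 fold change was -0.86 (SE 0.13, edgeR adjusted p = 0.0098). Sox6 and Zbtb7a were the only members called under each of the 11 other settings tried, with log2 fold changes of -0.95 to -0.78 for Sox6 and of -0.98 to -0.74 for Zbtb7a. Bcl11a, the zinc finger repressor that binds the fetal globin promoters in human cells, was at 34.9 and 34.6 CPM in KO, against 49.7 and 42.4 CPM in WT. The WT libraries were both higher, and the difference missed the threshold narrowly (log2 fold change -0.41, SE 0.12, edgeR adjusted p = 0.0533). It was passed with DESeq2, with no filter on low counts and with the replicate block.

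Reads across splice junctions, which the authors counted in a separate table of the same libraries, gave the same direction for each of the 10 genes. Of the members, 4 were lower and 0 higher by these reads, against 4.38% of 11265 tested genes lower and 6.23% higher. Gata1 junctions stood at 157 and 137 CPM in KO and at 198 and 226 CPM in WT, in junction reads after TMM scaling. On this measure Gata1 fell (log2 fold change -0.53, SE 0.16, edgeR adjusted p = 0.0418). Tal1 fell by 0.86 (SE 0.17, edgeR adjusted p = 0.0075), Klf1 by 0.92 (SE 0.23, edgeR adjusted p = 0.0194) and Sox6 by 0.64 (SE 0.16, edgeR adjusted p = 0.0196) on the log2 scale. These 3 fell in both tables, and by junction reads the fall of Klf1 was the largest of the members. Without KO replicate 2 the count was 1, Tal1, the call of Gata1 being lost without WT replicate 2 as well. Zfpm1 had a log2 fold change of -0.50 (edgeR adjusted p = 0.0637). Zbtb7a, whose transcript has only 2 listed junctions, held 14 and 12 junction reads in KO and 14 and 30 in WT, too few to decide at its standard error of 0.59, with a log2 fold change of -0.86.

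**Figure D2:**
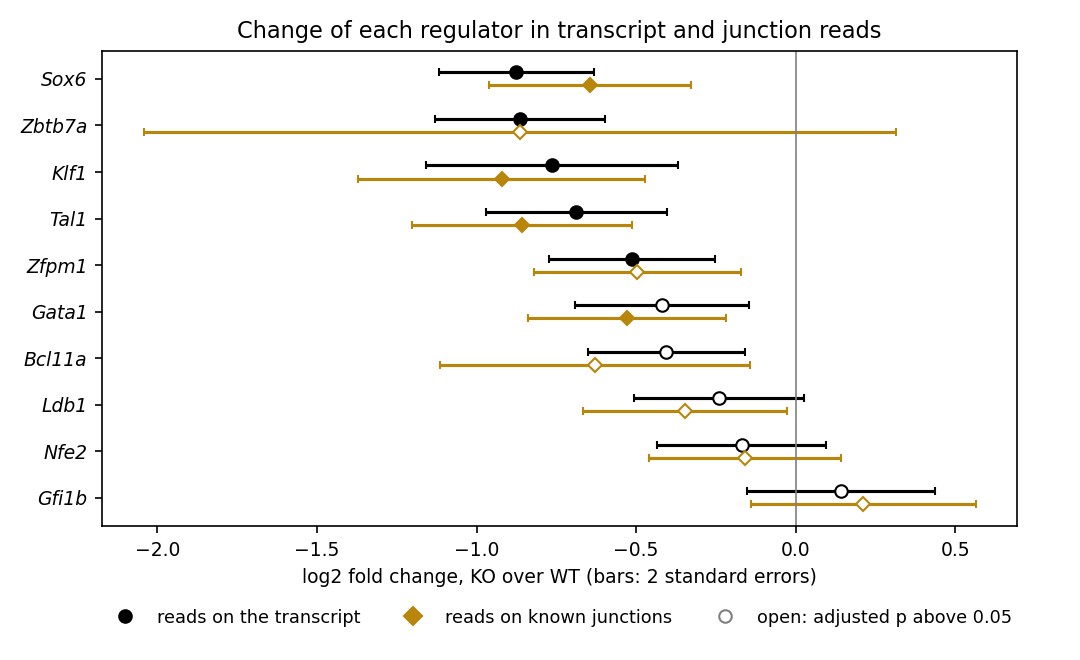
Log2 fold change of each regulator, KO over WT, from reads on the transcript (black circles) and from reads on known junctions (gold diamonds), with bars of 2 standard errors. Filled symbols passed an edgeR adjusted p of 0.05: Sox6, Klf1 and Tal1 are filled on both measures, Zbtb7a and Zfpm1 on transcript reads and Gata1 on junction reads.

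Genes of the red cell itself fell beside their regulators. Their counts stand beside 9.44% of all tested genes lower, 11.4% higher and 31.7% with both KO libraries below both WT libraries. Of 16 erythroid markers, among them Spna1 (alpha spectrin, log2 fold change -1.05) and Aqp1 (a water channel, -0.99), 13 were lower and 0 higher, with both KO libraries below both WT libraries in all 16 and a median of -0.75. Without single libraries 5 to 14 of the 16 were lower, 5 of them without KO replicate 2 or WT replicate 2 and 7 without WT replicate 1. When the level of each regulator was set against the summed CPM of those 16 genes in its own library, their order stayed close to that of the log2 fold changes, since 1 divisor per library serves all of them. Per 1000 marker CPM, Gfi1b had 5.96 and 7.17 CPM in KO and 3.05 and 4.03 CPM in WT, a ratio of 1.85. Nfe2 had 22.5 and 25.6 in KO and 16.4 and 15.9 in WT, a ratio of 1.49. Ldb1 (ratio 1.41), Bcl11a (1.27) and Gata1 (1.25) were likewise higher in both KO libraries than in both WT libraries. For Tal1 (1.04), Zfpm1 (1.18), Klf1 (0.97), Sox6 (0.91) and Zbtb7a (0.92) the genotypes overlapped. The ratios carry no test.

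**Figure D3:**
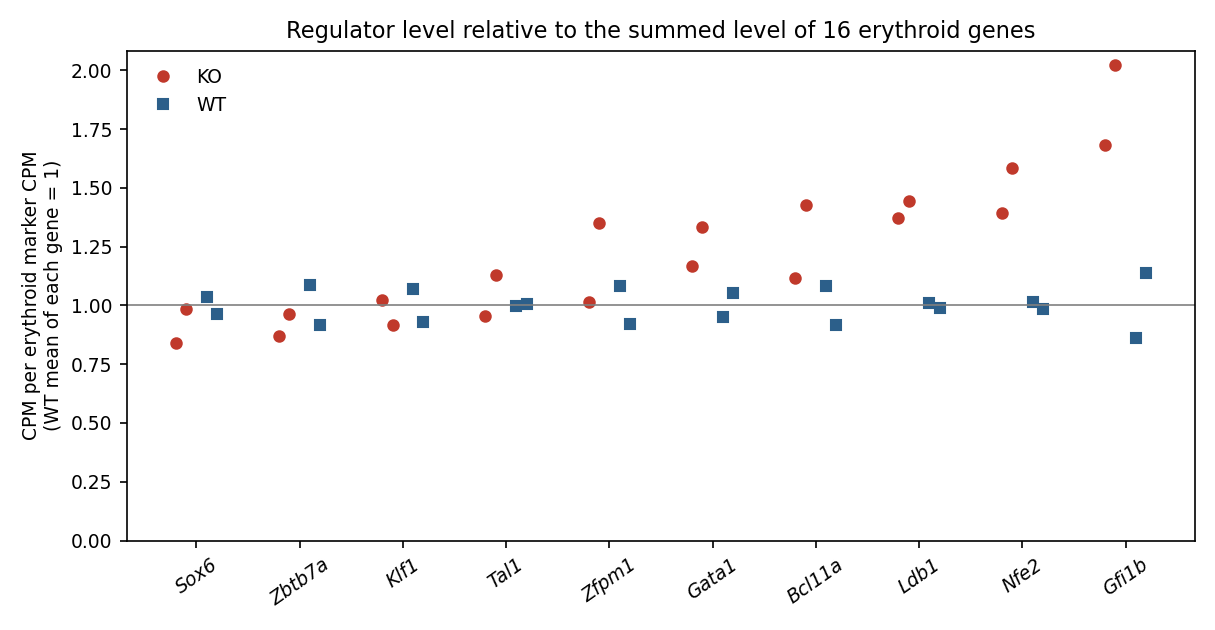
Level of each regulator relative to the summed level of 16 erythroid genes in the same library, scaled so that the WT mean of each gene is 1, with KO libraries (red circles) left of WT libraries (blue squares). Sox6, Zbtb7a, Klf1 and Tal1 sit around 1 in both genotypes, and Gfi1b sits near 1.85 in KO.

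Markers of other cells moved as well, and their part in the regulators' values was not tested. Each count of markers stands beside 9.44% of all tested genes lower and 11.4% higher. Of 12 megakaryocyte markers, 10 were higher and 0 lower in KO, among them Alox12 (log2 fold change 1.27) and Gp5 (1.66), with a median of 0.84 and sums of 1397 and 1173 CPM in KO and 733 and 783 CPM in WT. Megakaryocytes share Gata1, Tal1, Gfi1b, Nfe2, Zfpm1 and Ldb1 with the red cell line. Granulocyte markers had 4 of 10 higher and 0 lower (sums 1337 and 1014 in KO, 806 and 675 in WT), led by Mpo (1.47), Ltf (1.55) and Ngp (0.94). Ctsg (-0.50) and Prtn3 (-0.33) of that list did not pass, and both were called lower without KO replicate 1. Mast cell, basophil and eosinophil markers had 2 of 8 higher, Epx (2.20) and Hdc (1.21), with Cpa3 at 0.44 (not passing) and sums of 326 and 230 in KO and 145 and 163 in WT. Hepatocyte markers had 3 of 10 higher, Ambp (1.06), Hnf4a (0.91) and Serpina1a (0.87), with sums of 78485 and 66072 CPM in KO and 54067 and 38182 CPM in WT. Endothelial markers had 5 of 10 higher, led by Stab1 (1.12), Eng (0.93) and Stab2 (1.00), with sums of 835 and 882 CPM in KO and 525 and 577 CPM in WT. B lymphoid markers, which mark cells that also use Bcl11a, were near 0: 4 of 9 tested were lower (1 without KO replicate 1, KO replicate 2 or WT replicate 1), led by Igll1 (-2.55), Vpreb1 (-3.47) and Rag1 (-1.47), and their sums were 8.0 and 6.81 CPM in KO and 17.3 and 13.3 CPM in WT. Macrophage markers split, with Mertk (0.69) among 3 higher, Clec4f (-3.00) and Emr1 (-1.19) lower, and sums of 335 and 256 CPM in KO and 459 and 336 CPM in WT. Leaving out WT replicate 2 gave 0 higher and 3 lower macrophage markers, leaving out WT replicate 1 gave 2 and 2, leaving out KO replicate 2 gave 1 and 2, and leaving out KO replicate 1 gave 3 and 4. Of 12 heart muscle markers 11 were lower, led by Myl4 (-4.86), Myl7 (-3.13) and Nppa, an atrial peptide listed with 0 and 0.0195 CPM in KO and with 2.41 and 4.18 CPM in WT. Without KO replicate 2 the count was 7, and without KO replicate 1 or WT replicate 2 it was 8. Without single libraries the counts of higher markers were 6 to 10 for megakaryocytes, 3 to 6 for granulocytes, 1 to 5 for hepatocytes and 3 to 6 for endothelium (megakaryocytes 6 without KO replicate 1, WT replicate 1 or WT replicate 2).

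Each regulator has a related gene that other blood cells or tissues use, and none of these was called lower in the main edgeR test. Of the 10 relatives, 4 were higher in KO and 0 lower, with a median log2 fold change of 0.47. Over all tested genes 11.4% were higher and 9.44% lower. By unadjusted p under 0.05 1 relative was lower, and by DESeq2 0 were. Gata2, which precedes Gata1 in blood progenitors and which GATA1 turns off, was at 13.2 and 13.6 CPM in KO, against 4.92 and 6.12 CPM in WT. Both KO libraries stood well above the WT range, with a log2 fold change of 1.27 (SE 0.18, edgeR adjusted p = 0.0081). Per 100 RPKM of Gata1, Gata2 stood at 2.30 and 2.66 RPKM in KO and at 0.716 and 0.800 RPKM in WT, so it remained a small share of the pair in both genotypes. Sox5, the close relative of Sox6, rose by 0.72 (edgeR adjusted p = 0.037), and stood at 11.8 and 15.5 per 100 RPKM of Sox6 in KO and at 4.15 and 4.83 in WT. Zbtb7b, the T cell relative of Zbtb7a, rose by 0.51 (edgeR adjusted p = 0.0316), and stood at 43.7 and 53.6 per 100 RPKM of Zbtb7a in KO and at 18.4 and 19.0 in WT. Gfi1, the granulocyte relative of Gfi1b, rose by 0.74 (edgeR adjusted p = 0.0461). Without single libraries 1 or 2 relatives were higher (2 without KO replicate 1, 1 without any other), and Gata2 kept its call in each. The call of Gfi1 was also lost with limma voom and with summed transcripts, and Gfi1 was named after its value was seen. Lyl1, the relative of Tal1, was the only relative with both KO libraries below both WT libraries (87.1 and 68.6 CPM in KO, 116 and 92.6 CPM in WT), at a log2 fold change of -0.42 that missed the threshold (edgeR adjusted p = 0.0949) and passed it with no filter on low counts or with the replicate block.

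**Figure D4:**
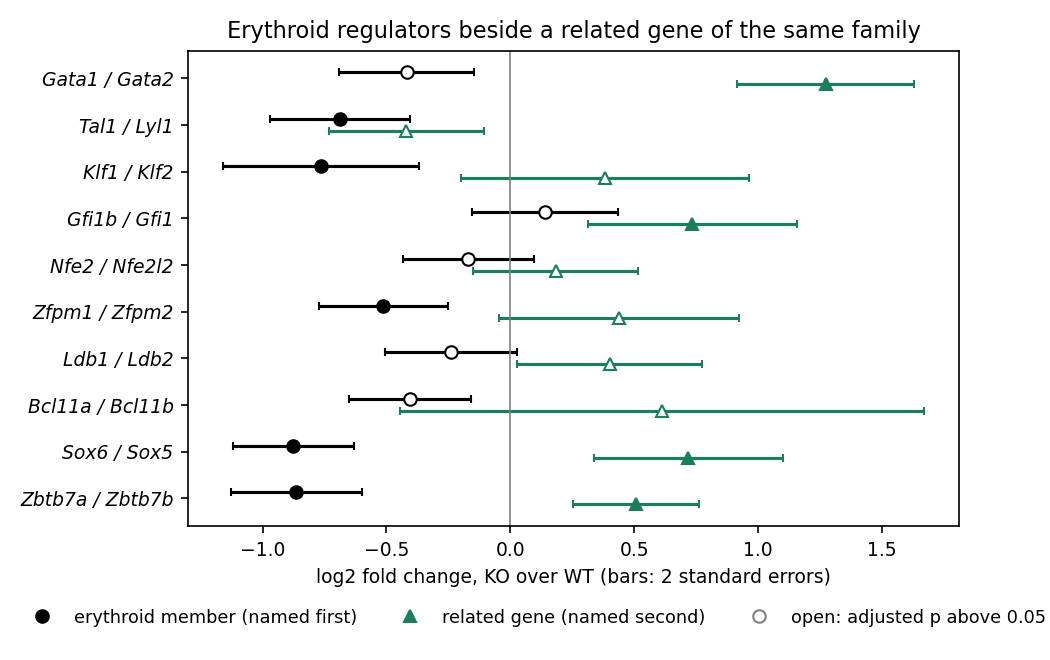
Log2 fold changes, KO over WT, of each erythroid regulator (black circles) and of a related gene of its family (green triangles), with bars of 2 standard errors and filled symbols past an edgeR adjusted p of 0.05. The filled triangles Gata2, Gfi1, Sox5 and Zbtb7b lie to the right of 0, and no triangle is filled to its left.

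Genes of the proteins that work with these factors moved both ways, and the counts here stand beside 9.44% of all tested genes lower and 11.4% higher. Of 18 complex partners, 3 were lower and 2 higher. Mafk, the small MAF protein that pairs with NFE2, was at 71.4 and 66.7 CPM in KO and 127 and 113 CPM in WT (log2 fold change -0.80, edgeR adjusted p = 0.0081), whereas Maff, another small MAF, was higher, at 6.16 and 6.71 CPM in KO and 2.66 and 3.71 CPM in WT (1.00, edgeR adjusted p = 0.025). Lmo2, the bridge between TAL1 and LDB1, was at 186 and 144 CPM in KO and 267 and 282 CPM in WT (-0.73, edgeR adjusted p = 0.0175). The other partners past the threshold, named after their values were seen, were the corepressor gene Rcor1 (-0.52) and Cbfb, the partner of RUNX1 (0.63). Of 19 genes of the corepressors that BCL11A and ZBTB7A recruit, mainly the NuRD complex, 6 were lower and 0 higher, led by Mta2 (-0.57), Rbbp4 (-0.60) and Mbd2 (-0.49). Of 18 other erythroid regulators, 5 were lower and 1 higher. The leading falls were E2f2 (-0.97), a cell cycle factor of maturing red cells, Ncoa4 (-0.89), the receptor for ferritin breakdown, and Jak2 (-0.65), the kinase of the erythropoietin receptor, and the 1 higher gene was Arid3a (0.41, named after its value was seen). Without single libraries 1 or 2 partners were lower and at most 1 was higher, 0 to 4 corepressors were lower (4 without KO replicate 1, 0 without KO replicate 2) and 2 to 6 of the other regulators were lower. With no TMM scaling 3 corepressors were lower. The medians were -0.16 for partners, -0.13 for corepressors and -0.35 for the other regulators, beside 0.02 over all genes.

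Genes that these factors are known to activate fell in KO, and some that GATA1 is known to repress rose. Over all tested genes 9.44% were lower and 11.4% higher, and in 31.7% both KO libraries lay below both WT libraries. Of 28 tested genes that GATA1, TAL1 and KLF1 activate, 23 were lower and 0 higher, and in all 28 both KO libraries lay below both WT libraries. Their median log2 fold change was -0.76, and the 3 with the smallest p were Spna1, Aqp1 and Slc25a38 (a mitochondrial glycine carrier of haem synthesis, -0.81). The 16 erythroid markers above are all on this list, so the lists are not separate evidence. Without KO replicate 2, WT replicate 1 or WT replicate 2 the count was 9, 11 and 9. Of 11 tested genes that GATA1 represses, 6 were higher and 0 lower, with a median of 0.41. Gata2 led, before Cebpa (0.85) and Myc (0.77), the proliferation factor. Some markers of other cell types were higher in KO too, and the part of such cells in these values was not tested. Without single libraries 2 to 4 of these were higher, 2 of them without KO replicate 2. Myb and Kit, also on that list, had log2 fold changes of 0.06 and -0.08 that did not pass.

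Globins, the products of the switch, did not move as a block. Adult beta globins Hbb-b1 and Hbb-b2, near-identical copies that can share reads, fell by 1.13 and 1.14 on the log2 scale (edgeR adjusted p = 0.0191 and 0.0207). Hbb-y, the embryonic beta globin that Sox6 and Bcl11a repress in mice, was at 4450 and 4456 CPM in KO and 3448 and 3772 CPM in WT. It was higher in both KO libraries without passing (0.30, edgeR adjusted p = 0.253). Hbb-bh1, the other embryonic beta globin, fell by 1.06 (edgeR adjusted p = 0.0111), so that the pair of embryonic genes did not share a direction. Hba-x, the embryonic alpha globin zeta, rose by 1.42 (edgeR adjusted p = 0.0067), and Hbq1b, a theta globin, fell by 1.03 (edgeR adjusted p = 0.0081). In all, 4 of 9 tested globins were lower and 1 higher, and the count of lower globins was 2 without KO replicate 2 or WT replicate 1 and 6 without KO replicate 1, where Hba-a1 and Hba-a2 were added. Hba-a1 and Hba-a2, the adult alpha globins, hold identical reads because the files list both at the same 2 loci, so they count as 1 gene measured at 2522 and 1158 CPM in KO and 2691 and 2715 CPM in WT. KO replicate 2 stood well below the other 3 libraries, and the log2 fold change was -0.55 (edgeR adjusted p = 0.257). Hbb-b1 and Hbb-b2 are likewise listed over the same stretch, so their reads cannot be added without counting many of them more than once. The counts of globins above take each name of both pairs as a gene, beside 9.44% of all tested genes lower and 11.4% higher. With the copy that holds more reads (Hbb-b2) as the adult gene, Hbb-y and Hbb-bh1 took 34.8% and 40.4% of beta globin reads in KO and 16.3% and 21.6% in WT. With both copies added, the shares were 21.9% and 26.0% in KO and 9.33% and 12.6% in WT. With adult alpha reads counted once per locus, Hba-x took 6.32% and 17.6% of alpha globin reads in KO and 2.87% and 2.83% in WT. Under each count both the beta and the alpha share were higher in both KO libraries than in both WT libraries. The Hbb-b2 reads under the first share numbered 413896 and 345995 in KO and 624182 and 811218 in WT, and the embryonic ones 220668 and 234554 in KO and 121627 and 224041 in WT. Any link of these shares to Sox6, Zbtb7a or Bcl11a was not tested. The adult globins were named, and the counts with 1 copy chosen, after their values were seen.

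Splicing of the regulators was read from their junctions. The files list 375 junctions in the 10 genes, 68 marked known and 307 putative, of which 63 known and 23 putative had a read. Putative junctions took 0.110% to 0.411% of member junction reads in each library. In the test of junction usage, which sets each junction against the others of its gene, 0 of 63 member junctions passed an adjusted p of 0.05 (edgeR diffSpliceDGE), against 0.00387% of 103312 junctions. The test was also run on simulated counts, with known changes put into junctions of many reads. It recovered 2% of changes of 1 log2 unit and 53% of changes of 2. Most shifts of 1 log2 unit would thus be missed, so the absence of calls does not show that usage was alike. By the same test and by its quasi-likelihood form, 3 member junctions had an unadjusted p under 0.05, beside 3.25% of all junctions, and they lie in Sox6 and Ldb1. Combined per gene by the Simes test on diffSpliceDGE, 0 members passed, against 0.0374% of 10689 genes, and the smallest unadjusted p was 0.155, in Ldb1. Among the other 8 members, the smallest p of a junction was 0.245, in Gfi1b.

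Sequences across the junctions in which the splice forms of Ldb1, Sox6 and Bcl11a differ are shown because these bases tell the forms apart. Each has 15 bases of the exon before and 15 of the exon after the junction, 5′ to 3′ in the transcript, taken from GENCODE M21 transcripts matched by RefSeq transcript and intron length. Capitals mark the bases that set a form apart from its alternative. Ldb1 lies on chromosome 19, Sox6 on chromosome 7 and Bcl11a on chromosome 11.
Ldb1 distal first exon: GCTGTGCCTGTCCTGgttgttcctcaaagt
Ldb1 proximal first exon: CCTCAGTTCTCCCAGgttgttcctcaaagt
Sox6 cassette exon included: CACAGACAGATTGAGcagctctatgccgct
Sox6 cassette exon skipped: CCTTTACAGCTTCAGcagctctatgccgct
Bcl11a exon 3 included: aggaacacatagcagATAAACTTCTGCACT
Bcl11a exon 3 skipped: aggaacacatagcagGTAAAGATGAGCCCA
The Sox6 shares given later also count reads at a second acceptor site 3 bases away, whose sequence is not shown. The last sequence joins exon ends that the files link only by a putative junction.

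Ldb1 starts at either of 2 first exons that splice to the same second exon, as both Ldb1 lines show by their shared lower-case bases. The distal first exon of 382 bases carries 25 coding bases and makes all 103 bases of the second exon coding, whereas the proximal first exon carries 0 coding bases and leaves 20 of those 103 coding. The distal form therefore encodes 36 more codons at its start. The distal junction had 42 and 46 reads in KO, against 14 and 37 in WT, and the proximal junction had 171 and 208 reads in KO, against 355 and 305 in WT. As a share of both, the distal form took 19.7% (95% exact binomial interval 14.6 to 25.7) and 18.1% (13.6 to 23.4) in KO, against 3.79% (2.09 to 6.28) and 10.8% (7.73 to 14.6) in WT. The shares of the genotypes did not overlap, but the interval of WT replicate 2 overlapped those of both KO libraries. The WT shares differed from each other by more than the KO shares did. Per 1000000 known junction reads, the distal junction stood at 5.87 and 6.63 in KO and 2.87 and 4.29 in WT. The proximal junction stood at 23.9 and 30.0 in KO and 72.8 and 35.4 in WT, where WT replicate 1 was far above the other 3 libraries. The log2 change of usage was 1.04 for the distal and -0.74 for the proximal junction, both with an adjusted p of 1.00, so the shift is a description of these 4 libraries.

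Sox6 has a cassette exon of 123 bases, or 41 codons, all coding, so that skipping keeps the reading frame. From its downstream side, inclusion was 26.7% and 23.0% in KO, against 41.2% and 34.0% in WT, with KO below WT and few reads behind each share (30 and 61 in KO, 68 and 103 in WT). The upstream side of the same exon gave 52.2% and 19.0% in KO and 43.7% and 20.9% in WT, where the genotypes overlapped and replicates differed widely. Both sides read the same exon, so the share of inclusion in KO is not settled by these reads. At another Sox6 junction, a site that leaves the exon 3 bases longer was used in 16.3% and 26.0% of reads in KO and in 29.9% and 27.7% in WT. Gfi1b has a choice of 99 bases (33 codons), and its shorter form took 70.0% and 68.2% of reads in KO and 63.6% and 68.6% in WT. That split was about the same in all 4 libraries.

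Bcl11a reads were few. A junction that leaves out exon 3 (102 bases, 34 codons), marked putative in the files, had 8 and 3 reads in KO and 0 and 2 in WT. Beside the reads that enter exon 3, this was 15.7% (7.02 to 28.6) and 7.32% (1.54 to 19.9) in KO. In WT it was 0 of 39 reads, at most 7.69% by a limit of 3 reads, and 2.82% (0.34 to 9.81). KO lay above WT, and the exact interval of each KO library overlapped those of both WT libraries (0 to 9.03 in WT replicate 1). The downstream of the first exons of Bcl11a took 3.51% and 11.9% of reads in KO and 13.2% and 17.6% in WT, from 2 and 5 reads in KO and 7 and 13 in WT. Such intervals cover counting error only. The splice choices of Ldb1, Sox6, Gfi1b and Bcl11a were picked after their reads were seen.

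**Figure D5:**
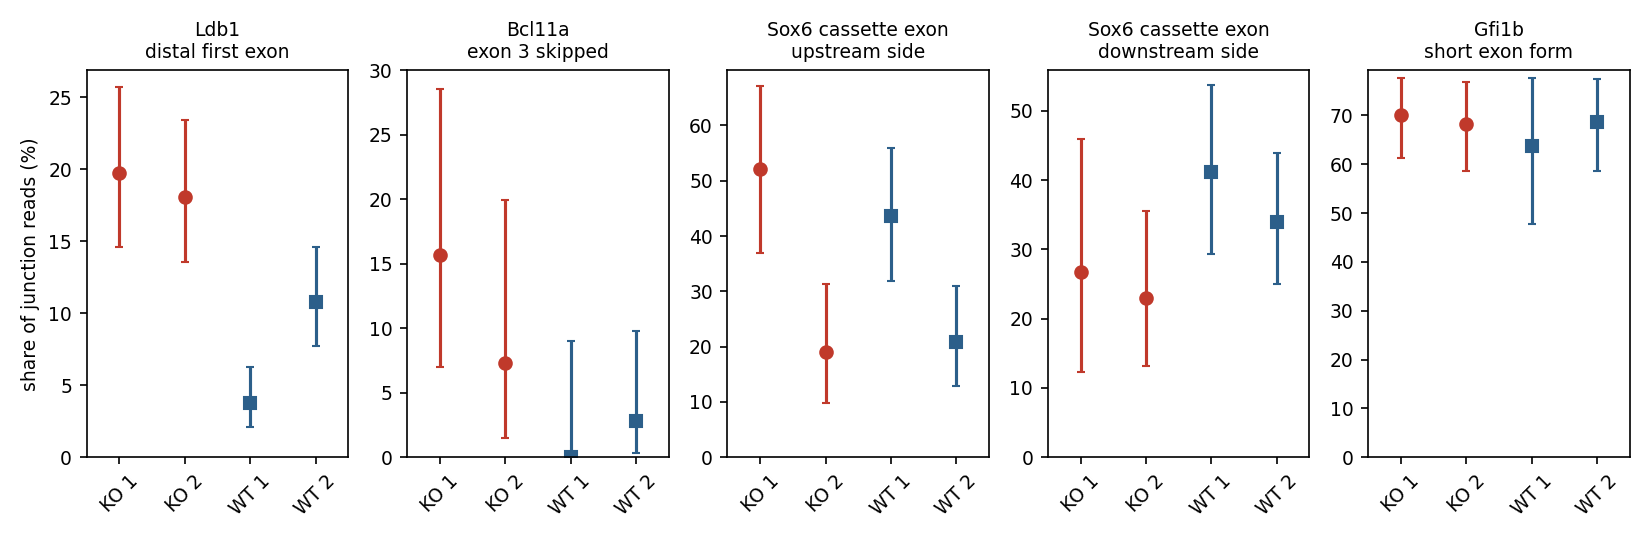
Share of junction reads (%) for 5 splice readouts in each library, KO (red circles) left of WT (blue squares), with 95% exact binomial intervals that cover counting error and with a separate vertical axis from 0 in each panel. The Ldb1 distal first exon is higher in both KO libraries (19.7% and 18.1%) than in WT (3.79% and 10.8%), the 2 sides of the Sox6 cassette exon differ from each other, and the Gfi1b choice is level.

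For Sox6, the regulator with the smallest p, the genes whose levels ran most like its own over the 4 libraries were sought among 8180 genes whose log2 CPM averaged at least 4. By root mean square distance of centred log2 CPM, the nearest 5 were Hist1h3a, Cdkn3, Hspbap1, Rab43 and Hace1, at 0.020 to 0.033 on the log2 scale, with log2 fold changes of -0.91 to -0.82. Their rank rests on 4 libraries only.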

How the data were processed

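RNA of fetal liver cells from 2 KO and 2 WT mice was sequenced after ribosomal RNA depletion, RNase III fragmentation, selection of 150 to 300 bp fragments and 12 PCR cycles, per the labels' protocols. The authors deposited raw counts of reads per RefSeq transcript (per the file headers: primary alignments, mapping quality of at least 10, score clear zone of 5), with RPKM per 1000000 mapped reads and reads per nucleotide, a coverage signal that the authors made from the same counts and that was not used. A second deposited table holds raw counts of reads per splice junction. No source used here gives the aligner, genome build, strand use or junction rules. Overlapping genes can thus share reads.

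From these files, the transcript with most reads was kept for each of 22011 genes. Reads on these transcripts numbered 47700336 and 48162919 in KO and 33738843 and 56895360 in WT, and known junction reads 7150406 and 6941562 in KO and 4875332 and 8624429 in WT. Gene counts went through edgeR 4.0.16 and its quasi-likelihood test (R 4.3.3, TMM, filterByExpr, Benjamini-Hochberg over 15028 genes, threshold 0.05). Standard errors are the log2 fold change over the root of F. Junction usage was tested with diffSpliceDGE of edgeR (glmFit) on known junctions whose 4 libraries held 10 reads or more. The edgeR gene test and the junction usage test were run on simulated counts with known changes. The gene test recovered 76% of changes of 1 log2 unit and 94% of changes of 2, with 12 false calls among 14870 genes. The values of the junction test are given above. Alternatives were DESeq2 1.42.0, limma 3.58.1 voom, other scalings and filters, summed transcripts, each library left out, the erythroid marker sum as scale and, added after seeing the data, a quasi-likelihood junction fit.

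The members and all gene lists were chosen with earlier results of these data known. Named are all members, the 3 genes with the smallest p of each list, Hnrnpl, for each member its junction with the smallest p, and the 5 genes nearest to the member with the smallest p. Some genes that this rule names are not reported here. Zinc fingers were not counted because no protein sequences were used here. Samples are mice of a genotype with no litter given, so the spread behind each p-value is that of the 4 libraries. In WT it may be technical. In KO it includes a difference of sex, since only KO replicate 2 carried Y-linked Ddx3y. An exact two-sided permutation test of 2 against 2 cannot go below p = 0.333, and each call relies on variance that edgeR shares across genes. Intervals are exact Clopper-Pearson, and a count of 0 was given the limit of 3 reads.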

Additional observations from a re-analysis of the deposited data

Results flagged for a closer look

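A putative Bcl11a junction, outside the test of known junctions, carried 11 reads in the KO libraries (8 and 3), against 0 and 2 in the WT libraries, or 1.12 and 0.432 per 1000000 known junction reads in KO against 0 and 0.232 in WT. It joins the second exon to the fourth. It was noted because both KO libraries lay above both WT libraries in reads that no comparison of known junctions used. The difference was not tested, and its cause was not tested.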

How the results depend on the processing

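Of 110 gene-level values of the members under the 11 alternatives with a test, 92 kept their direction and their side of the threshold, 11 lost the call, 6 gained it and 1 changed direction. Leaving out single libraries gave 2 to 4 members lower, beside 5, and 1022 to 2492 genes called, beside 3130. It gave 1 to 4 members lower by junction reads, beside 4. Gfi1b then had log2 fold changes of -0.050 to 0.36. Without TMM, 71.4% of calls were higher in KO, beside 54.7%, and the median of all genes was 0.11. Relative to the erythroid marker sum, the log2 ratio turned positive for Gata1 (0.32), Tal1 (0.057), Nfe2 (0.57), Zfpm1 (0.24), Ldb1 (0.49) and Bcl11a (0.35), as the marker sum itself was lower in KO.

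The file names of the libraries share numbers across genotypes. Deviations of same-numbered libraries correlated at 0.136, from 2 pairs, which does not establish a pairing. With the shared number as a replicate block, 7 members were lower (Gata1 and Bcl11a added), as with DESeq2 and with no filter, and 4341 genes were called, and the Zbtb7a junction named had a usage change of -0.31.

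Over all junctions, 4 calls became 10 with putative junctions, 2 with the quasi-likelihood fit and 4 to 13 without single libraries; over genes, 4 became 8, 2 and 3 to 6. The cause was not tested. Without single libraries, usage changes of the named junctions spanned -0.86 to 0.018 in Zfpm1, -0.12 to 0.46 in Gata1, -0.13 to 0.29 in Nfe2, -1.26 to 0.40 in Tal1, -4.30 to 0.98 in Zbtb7a and -0.75 to 0.27 in Klf1, none of them past the threshold. Depth limits the junctions of Zbtb7a and Bcl11a most.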
